A study of Mus musculus with 6 samples.

Results

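The respiratory chain genes were the protein-coding genes whose symbols start with Ndufa, Ndufb, Ndufc, Ndufs, Ndufv, Uqcr, Cox4 to Cox8 or Atp5, together with Sdha to Sdhd, Cyc1 and the mRNAs of the mitochondrial genome, and 111 of the 56748 genes in the table met this rule. The nuclear genome held 98 of them and the mitochondrial genome 13, and both sets were kept apart throughout. By their symbols, 90 of the nuclear genes were counted as subunits (40 of complex I, 4 of complex II, 9 of complex III, 19 of complex IV and 18 of complex V) and 8 as the Ndufaf assembly factors of complex I. This placed Ndufa4 and Ndufa4l2 under complex I and Cox5b-ps, a near-copy of Cox5b, under complex IV. The mitochondrial genes encode 7 subunits of complex I, 1 of complex III, 3 of complex IV and 2 of complex V.

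The respiratory chain passes electrons from NADH and succinate to oxygen and pumps protons across the inner mitochondrial membrane, and complex V, the ATP synthase, uses the resulting gradient to make ATP. Complexes I, III, IV and V are built from subunits of both genomes, whereas complex II has nuclear subunits alone. Mitochondrial mRNAs are cut from long transcripts of the mitochondrial DNA that also hold the mitochondrial rRNAs and tRNAs, so that their levels also depend on cutting and decay. ECs are known for making much of their ATP by glycolysis.

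RNA-Seq was done on ECs sorted from the spinal cord of mice of both sexes at P16, with 3 control mice and 3 TDP-43iΔEC mice and 1 library per mouse. Control mice carried the floxed Tardbp gene (Tardbpflox) without Cre. TDP-43iΔEC mice also carried Cdh5(PAC)-CreERT2, a tamoxifen-inducible Cre driven by the promoter of the vascular cadherin gene Cdh5, which deletes the floxed exon of Tardbp, the gene of TDP-43. Mice of both groups were on a C57BL/6 background and received tamoxifen at 1 mg/mL from P5 to P7. The comparison asks which EC transcripts differ when TDP-43, an RNA-binding protein, is lost from ECs.

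The libraries held 25704871 to 47270654 counts, and the 2 shallowest were TDP-43iΔEC mice 2 and 3. Values are given below as normalized counts (counts divided by size factors), in the order of mice 1, 2 and 3. Tardbp had 1973, 2282 and 2069 normalized counts in controls and 982, 600 and 433 in TDP-43iΔEC mice. The groups did not overlap, and the log2 fold change was -1.62 (SE 0.41), with an unadjusted p of 0.00332 and an adjusted p of 0.287 from limma. Of the exonic bases of Tardbp, 33.1% also belong to other genes, and the counts do not separate strands. The 5 endothelial markers summed to 8948 to 12720 CPM (counts scaled to the library total). Of them, Flt1 and Kdr were lower in TDP-43iΔEC mice without overlap. Their log2 fold changes were -0.69 (SE 0.11, adjusted p = 0.0635, limma) and -0.26 (SE 0.13). Pecam1, Cldn5 and Vwf overlapped, with 0.14 (SE 0.16), -0.22 (SE 0.16) and -0.09 (SE 0.165). The 4 markers of oligodendrocytes, the myelin-forming cells, summed to 288, 345 and 545 CPM in control mice and 498, 59.4 and 14.9 CPM in TDP-43iΔEC mice. The 4 hemoglobin genes taken as red blood cell markers summed to 7554, 6304 and 9698 CPM against 2186, 2357 and 2898 CPM, and all 4 were lower in TDP-43iΔEC mice in limma (log2 fold changes of -2.09 to -1.70, adjusted p values of 0.0209 to 0.0270). The 4 neuron markers summed to 4.70 to 8.74 CPM against 0.815 to 2.16 CPM, but Map2 had counts in control mouse 2 alone, and Rbfox3, the 1 neuron marker with an unadjusted p under 0.05, had 1.66, 0 and 0 normalized counts in controls and 31.9, 19.1 and 71.0 in TDP-43iΔEC mice (log2 fold change 5.57, SE 2.11, unadjusted p = 0.0271, adjusted p = 0.487). Antibodies to CD31, CD45 and the red blood cell antigen TER-119, each coupled to a dye, are listed by the study, and a gate against TER-119 would remove red blood cells, but the gates are not given in the sources used here. The part of these cells in the results below was not tested. In sorted cells counted in bulk, a smaller share of cells and less RNA per cell cannot be told apart.

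In limma, 18 of the 13107 genes tested passed an adjusted p of 0.05, or 0.137%, and none of the 104 respiratory chain genes tested was among them. Of the nuclear genes 91 of 98 were tested, and of the mitochondrial genes 13 of 13. At an unadjusted p under 0.05, 6 of the 13 mitochondrial genes were higher in TDP-43iΔEC mice and 0 were lower, while 4.26% of all genes were higher and 5.0% lower. The same count for the 91 nuclear genes was 1 higher and 5 lower. Groups that did not overlap were found for 4 of 13 mitochondrial genes, each higher in TDP-43iΔEC mice, and for 8 of 91 nuclear genes, 4 higher and 4 lower, against 7.93% higher and 7.10% lower among all genes. The median log2 fold change was 1.04 over the mitochondrial genes, -0.12 over the nuclear genes and -0.02 over all genes. DESeq2's Wald test put 1 nuclear gene (Ndufs1) and 1 mitochondrial gene (mt-Nd5) past an adjusted p of 0.05, and edgeR's quasi-likelihood test put 0 of all genes past it (848 of them had an unadjusted p under 0.05).

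As deposited, the mitochondrial mRNAs took a larger share of the counts in every TDP-43iΔEC library than in any control library, but control mouse 2 was close to them and lay among them when nuclear pseudogene copies were added or rRNA was left out. They made up 0.837%, 3.09% and 1.47% of the counts in controls and 3.71%, 3.11% and 3.42% in TDP-43iΔEC mice, which is 1.80% ± 1.16 (SD, n = 3) against 3.41% ± 0.297 (SD, n = 3). The control libraries spread more widely than the TDP-43iΔEC libraries, and the gap between the highest control and the lowest TDP-43iΔEC library was small. Nuclear rRNA genes took 14.8%, 14.8% and 18.5% of the counts in controls and 8.04%, 8.18% and 13.6% in TDP-43iΔEC mice. When the counts of nuclear and mitochondrial rRNA genes and hemoglobin genes were left out of the total, the mitochondrial mRNAs made up 1.00%, 3.80% and 1.87% against 4.15%, 3.47% and 4.10%, and the groups then overlapped. With the counts of the pseudogene copies described below, the shares were 1.09%, 3.70% and 1.80% against 4.38%, 3.64% and 4.09%, which also overlapped. The 98 nuclear genes made up 1.22%, 1.20% and 1.36% of all counts in controls and 1.31%, 1.27% and 1.41% in TDP-43iΔEC mice, and these groups overlapped as well.

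**Figure D1:**
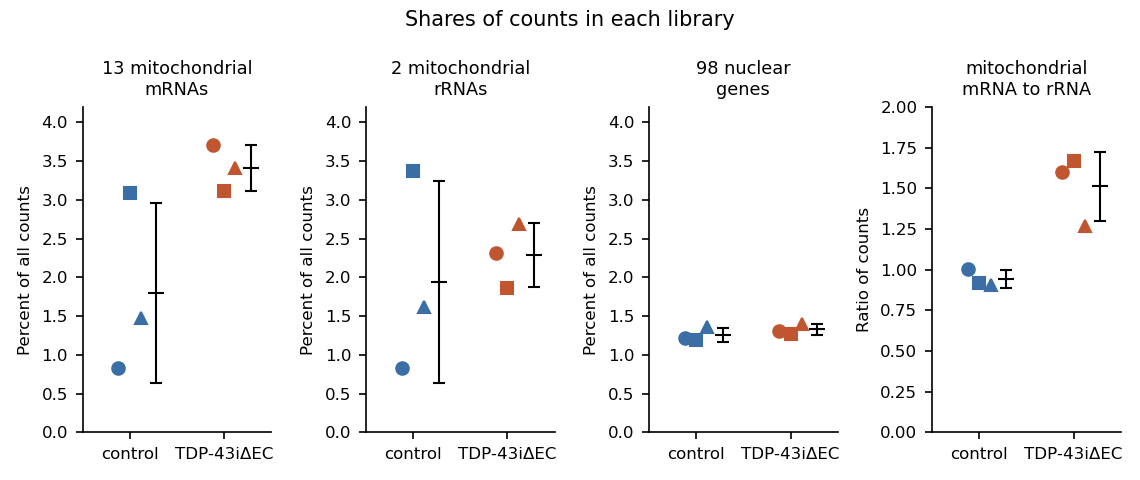
Each point is 1 library (circle, square and triangle for mice 1, 2 and 3), and the bar beside each group gives the mean and SD (n = 3). The first 3 panels show the percent of all counts taken by the 13 mitochondrial mRNAs, the mitochondrial rRNAs and the 98 nuclear genes, and the last shows the ratio of mitochondrial mRNA to mitochondrial rRNA counts, which was at most 1.00 in control mice and at least 1.27 in TDP-43iΔEC mice.

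The rRNAs of the mitochondrial ribosome, mt-Rnr1 and mt-Rnr2, come from the same DNA strand as most of the mRNAs and were not members of the set. They took 0.833%, 3.37% and 1.62% of the counts in controls and 2.31%, 1.87% and 2.7% in TDP-43iΔEC mice, and the groups overlapped. The ratio of mitochondrial mRNA to mitochondrial rRNA counts, which does not depend on how the libraries are scaled, was 1.00, 0.915 and 0.908 in control mice and 1.60, 1.67 and 1.27 in TDP-43iΔEC mice. It was higher in every TDP-43iΔEC library than in any control library, by 1.60 times on average, and with the pseudogene copies added it was 1.3, 1.10 and 1.11 against 1.89, 1.95 and 1.52. An exact permutation test of 3 against 3 mice cannot give a two-sided p below 0.1, so no p is attached to this ratio. SMARTseq2 copies polyadenylated RNA, so the rRNA counts depend on how much of that RNA was primed.

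Every mitochondrial mRNA had a log2 fold change above 0 as deposited, but that of mt-Co3 was near 0 and turned negative in 5 of the alternatives and that of mt-Nd3 in 1. The 5 largest values belonged to ND genes, which encode subunits of complex I. Control mouse 1 had the lowest value for 12 of the 13 genes. mt-Nd5, a proton-pumping subunit of complex I (chrM:11742-13565, plus strand, GRCm39), had 13139, 41476 and 20151 normalized counts in controls and 68321, 68308 and 80989 in TDP-43iΔEC mice. The groups did not overlap, and the log2 fold change was 1.66 (SE 0.31, unadjusted p = 0.000437, adjusted p = 0.136, limma). It passed an adjusted p of 0.05 in 6 of 18 alternatives, with adjusted p values from 0.00128 to 0.968. Leaving out control mouse 2 was among these and gave 2.08.

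mt-Nd2, a membrane subunit of complex I, had 2390, 12474 and 5992 normalized counts in controls and 18599, 15559 and 20226 in TDP-43iΔEC mice. The lowest TDP-43iΔEC value lay above the highest control value (log2 fold change 1.65, SE 0.44, adjusted p = 0.315). mt-Nd4, another proton-pumping subunit, had 19263, 84357 and 36055 normalized counts against 109228, 90455 and 111170. These groups did not overlap either, with a narrow gap between control mouse 2 and TDP-43iΔEC mouse 2 (log2 fold change 1.38, SE 0.39, adjusted p = 0.342). mt-Nd6, the mRNA made from the opposite DNA strand, had 367, 1791 and 917 normalized counts against 2408, 2139 and 4578. Its log2 fold change was 1.68 (SE 0.55, adjusted p = 0.416), and TDP-43iΔEC mouse 3 stood above the rest. Because the counts do not separate strands, RNA of the plus strand across mt-Nd6 can be counted for it. Without control mouse 1 the log2 fold changes of mt-Nd2, mt-Nd4 and mt-Nd6 were 1.03, 0.88 and 1.08, and without control mouse 2 they were 2.19, 1.91 and 2.19.

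The other mitochondrial genes overlapped between the groups, and for each of them except mt-Nd4l control mouse 2 lay above at least 1 of the TDP-43iΔEC mice. mt-Nd1, which encodes a subunit at the quinone site of complex I, had 24147, 134748 and 59794 normalized counts in controls and 124406, 97794 and 114688 in TDP-43iΔEC mice (log2 fold change 0.93, SE 0.46). mt-Cytb, the cytochrome b of complex III, had 65015, 246298 and 108622 against 253771, 204672 and 293982 (log2 fold change 1.01, SE 0.36, unadjusted p = 0.0220). mt-Co1 and mt-Co2, the catalytic subunits of cytochrome c oxidase, had log2 fold changes of 0.77 (SE 0.35) and 0.59 (SE 0.35). mt-Co2 had 33780, 117635 and 56494 normalized counts against 95212, 79871 and 109669, so that control mouse 2 was the highest of the 6 libraries. mt-Atp8, a small membrane subunit of complex V, had 191, 588 and 319 against 654, 386 and 1550 (log2 fold change 1.04, SE 0.72).

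**Figure D2:**
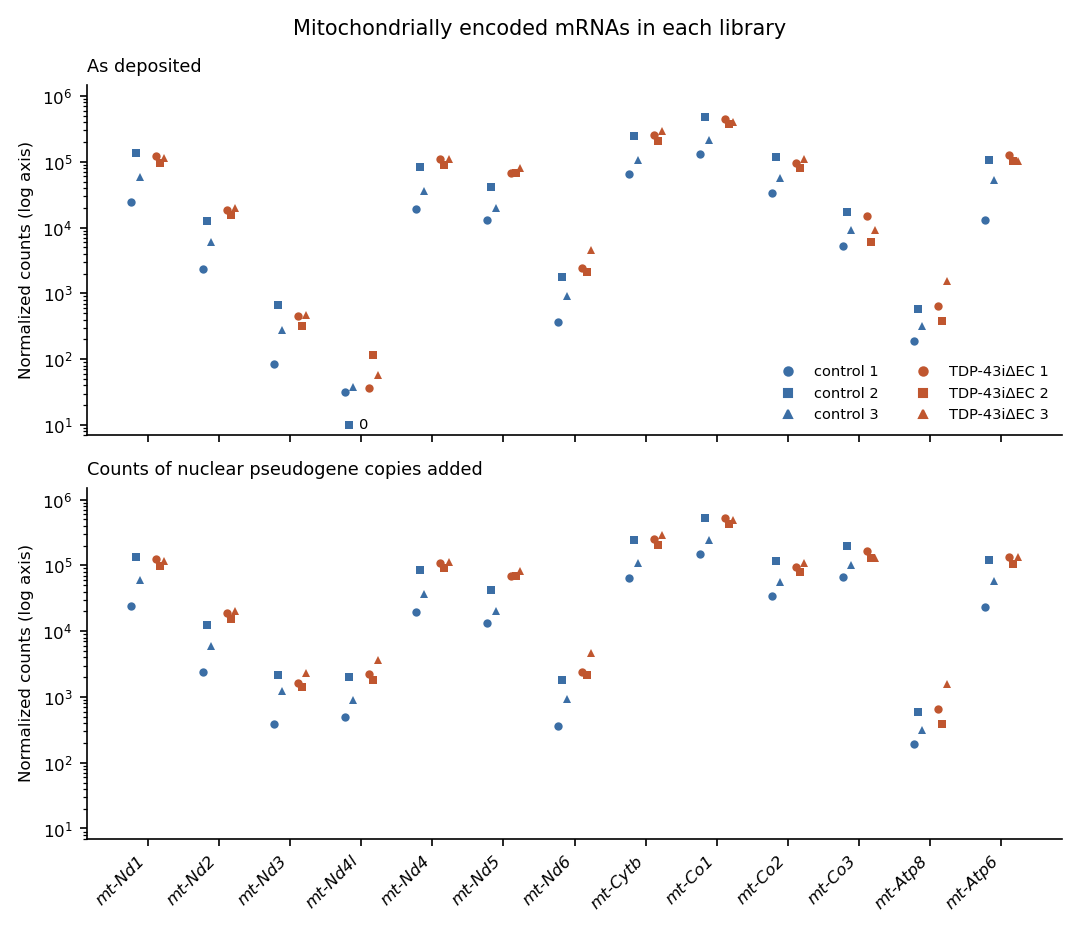
Normalized counts of the 13 mitochondrial mRNAs in each library (log axis; a value of 0 is drawn at the bottom and marked 0), as deposited and after adding the counts of the nuclear pseudogene copies. Control mouse 1 is lowest for 12 of the 13 genes as deposited, and mt-Nd2, mt-Nd4, mt-Nd5 and mt-Nd6 do not overlap between the groups.

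Several mitochondrial mRNAs share their sequence with copies of mitochondrial DNA in the nuclear genome, and the counts of gene and copy cannot be told apart where reads of 51 bases match both. The copies that took many counts lie side by side on chromosome 1, on the minus strand between positions 24651488 and 24655278 (GRCm39), and are annotated as pseudogenes. Gm28437 matches mt-Co3, a core subunit of cytochrome c oxidase, over 99.9% of its length at 100% identity and held 91.8% of the counts of both (773255 against 68853 over the 6 libraries). Gm10222 held 97.5% of the counts of the pair with mt-Nd4l, Gm28438 74.6% of the pair with mt-Nd3, Gm29216 12.6% of the pair with mt-Co1 and Atp6-ps 11.5% of the pair with mt-Atp6. The low count of mt-Co3 as deposited therefore went with a high count of its copy. The first 51 bases of mt-Co3 (chrM:8607-8657) and of Gm28437 (chr1:24653002-24653052, minus strand) are shown because they are the same letter for letter. A 51-base stretch of mt-Co1 (chrM:6381-6431) is shown with its match in Gm29216 (chr1:24655228-24655278, minus strand), where 6 bases, in capitals, differ. These were the only mismatches over the 492 aligned bases, so reads from the rest of the alignment match both.
mt-Co3: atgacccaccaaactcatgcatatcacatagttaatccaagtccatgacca
Gm28437: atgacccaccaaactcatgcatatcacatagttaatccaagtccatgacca
mt-Co1: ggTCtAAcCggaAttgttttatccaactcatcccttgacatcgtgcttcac
Gm29216: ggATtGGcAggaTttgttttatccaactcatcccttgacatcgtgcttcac

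Adding each copy's counts to its gene shifted the log2 fold changes of these genes, except that of mt-Nd3. mt-Co3 then had 65436, 196942 and 102293 normalized counts in controls and 163823, 128518 and 131012 in TDP-43iΔEC mice, with a log2 fold change of 0.35 (SE 0.32) in place of 0.02 (SE 0.45). mt-Nd4l had 490, 1983 and 905 against 2215, 1778 and 3690, with a log2 fold change of 1.28 (SE 0.50), whereas as deposited it had 31.6, 0 and 38.1 against 36.4, 117 and 56.8. mt-Atp6, the proton channel subunit of complex V, had a log2 fold change of 1.15 (SE 0.43) in place of 1.38 (SE 0.55), and mt-Co1 0.82 (SE 0.34) in place of 0.77. mt-Nd3 kept a log2 fold change of 0.72 (SE 0.56 in place of 0.84). With the copies added, 8 of the 13 genes had an unadjusted p under 0.05, all of them higher in TDP-43iΔEC mice, 4 did not overlap, and the lowest adjusted p was 0.131, for mt-Nd5.

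Some mitochondrial genes also share bases with each other, and reads over such bases can be counted for either gene. The reading frames of mt-Atp8 and mt-Atp6 overlap by 43 bases (chrM:7927-7969), those of mt-Nd4l and mt-Nd4 by 7 bases (chrM:10167-10173), and mt-Nd5 and mt-Nd6 face each other over 14 bases (chrM:13552-13565). The windows are shown on the plus strand with the shared bases in capitals.
mt-Atp8 and mt-Atp6: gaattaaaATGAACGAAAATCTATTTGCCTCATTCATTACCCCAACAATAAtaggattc
mt-Nd4l and mt-Nd4: ctactacaATGCTAAaaattatt
mt-Nd5 and mt-Nd6: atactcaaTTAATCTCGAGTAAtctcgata

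Within the pool of mitochondrial mRNAs, the complex I mRNAs took a larger share in TDP-43iΔEC mice and the cytochrome c oxidase mRNAs a smaller one. These shares are computed within each library, so they do not depend on scaling, but a rise of one share lowers the others. With copies added, the 7 ND mRNAs made up 15.1%, 18.7% and 18.1% of the pool in control mice and 21.9%, 22.6% and 22.6% in TDP-43iΔEC mice. The mt-Co1, mt-Co2 and mt-Co3 mRNAs made up 62.6%, 56.7% and 57.7% against 52.2%, 52.0% and 48.7%. Neither comparison overlapped, and the same held as deposited, with 19.4%, 22.1% and 21.8% against 25.6%, 26.2% and 26.7% for the ND mRNAs and 55.1%, 49.6% and 49.4% against 44.2%, 44.5% and 41.5% for the cytochrome c oxidase mRNAs. mt-Cytb, the 1 mRNA of complex III, and the mt-Atp6 and mt-Atp8 mRNAs of complex V also took larger shares without overlap with the copies added (16.3%, 16.5% and 15.7% against 17.0%, 16.7% and 19.7% for complex III, and 5.98%, 8.09% and 8.47% against 8.96%, 8.73% and 9.03% for complex V), by narrow margins, but overlapped as deposited. The share of mt-Nd1, the ND mRNA with the most counts, overlapped in both cases.

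Among single genes, mt-Nd4 took 4.84%, 5.65% and 5.22% of the pool in controls and 7.31%, 7.38% and 7.45% in TDP-43iΔEC mice with the copies added, so that the gap between the groups was wider than the spread within either. mt-Nd5 took 3.30%, 2.78% and 2.92% in control mice and 4.57%, 5.57% and 5.42% in TDP-43iΔEC mice, and mt-Nd2 0.600%, 0.836% and 0.868% against 1.24%, 1.27% and 1.35%. mt-Co2 took a smaller share, with 8.48%, 7.88% and 8.18% against 6.37%, 6.51% and 7.34%. The groups did not overlap for any of these genes. With the copies added, 7 genes had a larger share without overlap (mt-Nd2, mt-Nd4l, mt-Nd4, mt-Nd5, mt-Nd6, mt-Cytb and mt-Atp6) and 2 a smaller one (mt-Co2 and mt-Co3), and as deposited 4 had a larger and 3 a smaller share. mt-Co1, the most abundant of the mRNAs, took 37.7%, 35.6% and 34.7% against 34.9%, 35.0% and 32.6% with its copy added and overlapped, although it did not overlap as deposited (42.4%, 38.8% and 37.8% against 35.5%, 36.3% and 31.9%).

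**Figure D3:**
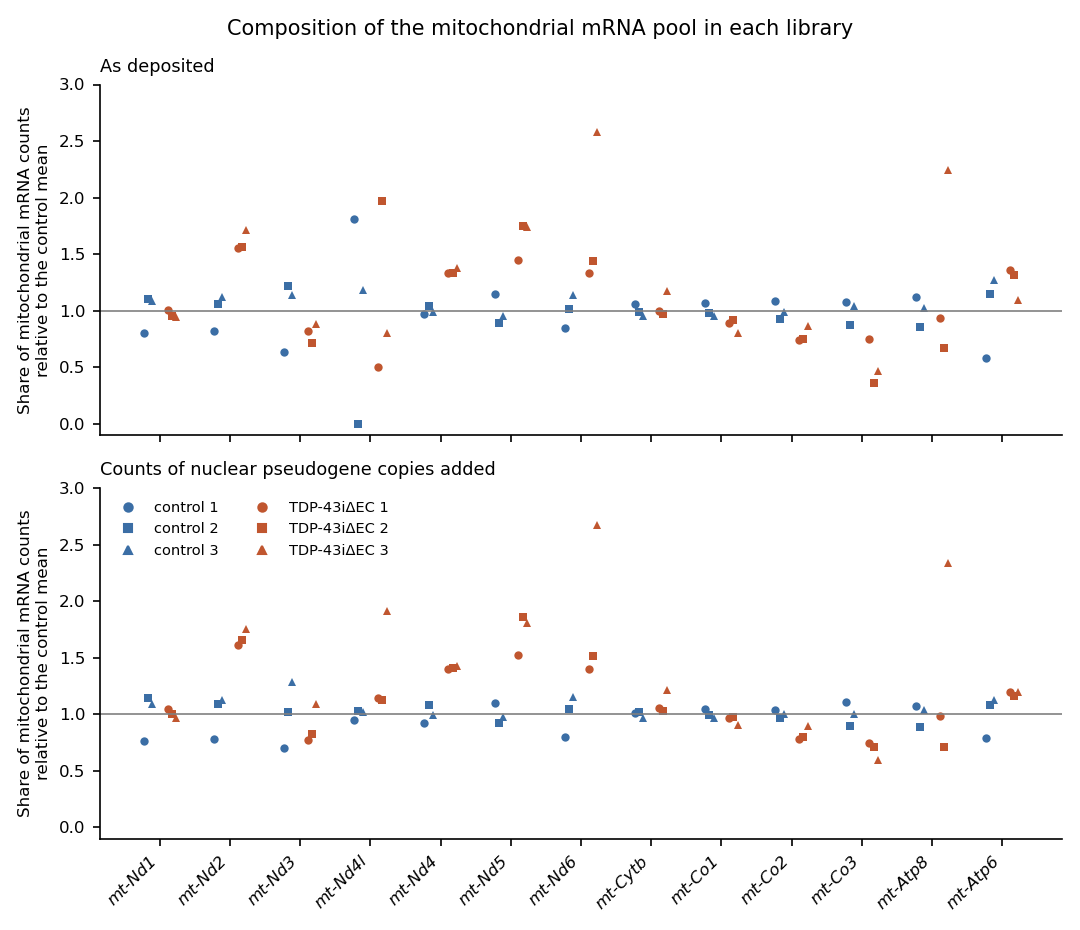
Share of each mitochondrial mRNA in the counts of all 13, divided by the mean share in control mice (line at 1), for each library, as deposited and with the counts of the nuclear pseudogene copies added. The TDP-43iΔEC points of mt-Nd2, mt-Nd4, mt-Nd5 and mt-Nd6 lie above all control points in both panels, and those of mt-Co2 and mt-Co3 below them.

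The medians of the nuclear genes were close to that of all genes. The median log2 fold change was -0.12 for complex I subunits, -0.09 for complex II, -0.03 for complex III, -0.14 for complex IV and -0.13 for complex V, and all 5 turned positive, between 0.11 and 0.20, when libraries were scaled to the 5 endothelial markers, which also raised the median of all genes to 0.23. For the Ndufaf factors it was -0.15. Of the 5 endothelial markers used for scaling, Flt1 and Kdr were themselves lower in TDP-43iΔEC mice without overlap. Relative to the median of all genes, the median of the 91 nuclear genes was -0.10 as fitted, -0.11 with scaling by library size only and -0.09 with the endothelial markers. Below 0 were 64 of the 91 genes and above 0 were 27, against 6646 below and 6461 above among all 13107 genes. The sign depended on scaling, and the nuclear median was 0.07 with library size only and 0.13 with the endothelial markers. With 1 mouse left out at a time, the median relative to all genes ran from -0.23 (without TDP-43iΔEC mouse 3) and -0.18 (without control mouse 1) to 0.00 (without TDP-43iΔEC mouse 2) and 0.01 (without control mouse 2).

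**Figure D4:**
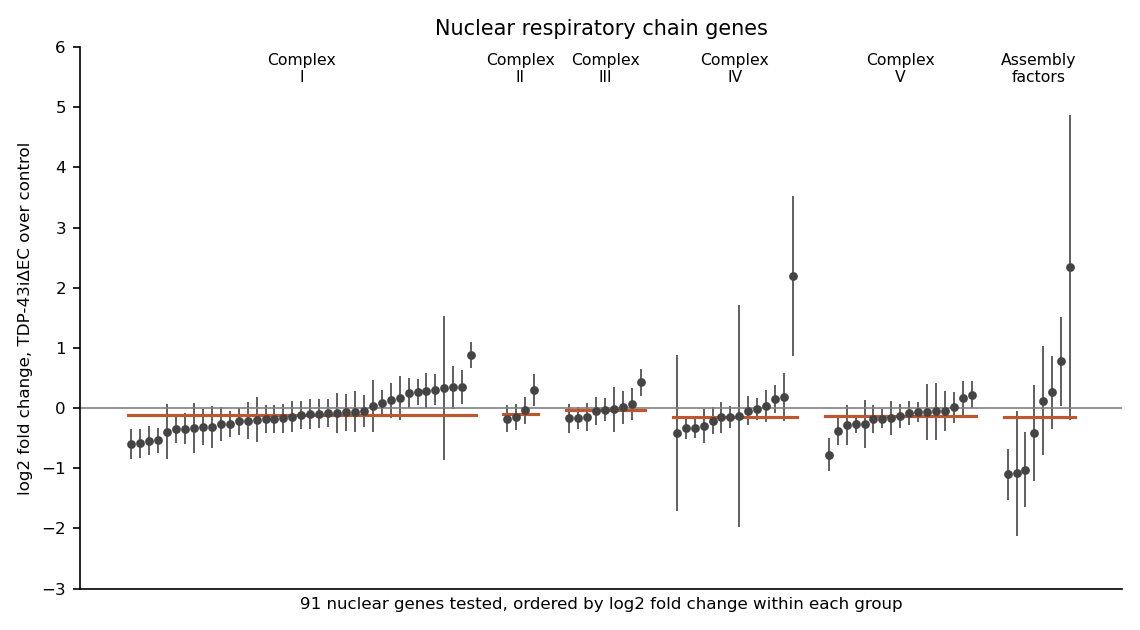
log2 fold change (points) with its SE (lines) of the 91 nuclear genes tested with limma, sorted within each complex and within the assembly factors, with the median of each group as a horizontal bar. Most points lie within 1 of 0, and the widest lines belong to genes with few counts such as Cox5b-ps and Ndufaf6.

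Complex I, the NADH dehydrogenase, held the 1 nuclear gene that was higher at an unadjusted p under 0.05. With its assembly factors it held 4 of the 5 that were lower. Of the 91 nuclear genes tested, 39 were complex I subunits (1 higher, 3 lower) and 8 were assembly factors (0 higher, 1 lower). Among all 13107 genes, 559 were higher and 656 lower at this threshold. Ndufs1, the largest subunit and a carrier of iron-sulfur clusters (chr1:63182058-63216236, minus strand, GRCm39), had 2342, 2425 and 2597 normalized counts in controls and 4442, 4510 and 5086 in TDP-43iΔEC mice. All TDP-43iΔEC values lay above all control values, and the log2 fold change was 0.88 (SE 0.22, unadjusted p = 0.00319, adjusted p = 0.287 with limma and 0.00502 with DESeq2). It stayed between 0.83 and 1.13 over 19 alternatives and passed an adjusted p of 0.05 only in DESeq2. Other genes, among them Eef1b2, overlap 14.4% of its exonic sequence.

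Ndufs7, which carries the iron-sulfur cluster next to the quinone site, had 4977, 5929 and 4551 normalized counts in controls and 3636, 3585 and 3666 in TDP-43iΔEC mice. The groups did not overlap (log2 fold change -0.53, SE 0.21, adjusted p = 0.498), but 49.4% of its exonic sequence overlaps Gamt. Ndufa6 and Ndufa13, both accessory subunits, had log2 fold changes of -0.60 (SE 0.25) and -0.59 (SE 0.25), with overlapping groups, and share 25.6% and 43.3% of their exonic sequence with other genes. Ndufab1, the mitochondrial acyl carrier protein, had 1987, 2856 and 3005 normalized counts against 3220, 3218 and 3376. It was higher without overlap by a small margin (log2 fold change 0.30, SE 0.26, adjusted p = 0.708).

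Ndufa4 had the highest mean count of the genes named Nduf, and its protein is now counted with complex IV. It had 4544, 6507 and 6956 normalized counts against 7540, 5653 and 11354, with TDP-43iΔEC mouse 3 above the others (log2 fold change 0.35, SE 0.28). Its relative Ndufa4l2, known as a hypoxia-induced gene, had 161, 41.0 and 373 against 170, 179 and 194, and 63.3% of its exonic sequence overlaps Shmt2. Among the assembly factors, Ndufaf7, an arginine methyltransferase that acts on a core subunit of complex I, had 4017, 7919 and 4265 normalized counts in controls and 3430, 1249 and 3101 in TDP-43iΔEC mice. These did not overlap, and the log2 fold change was -1.10 (SE 0.42, unadjusted p = 0.0286, adjusted p = 0.488). Its transcript shares stretches of at least 51 bases with 7 other genes, at 97% identity or more. Ndufaf1, which takes part in the assembly of the membrane arm, also did not overlap, with 521, 1017 and 785 against 494, 284 and 274 (log2 fold change -1.02, SE 0.62, unadjusted p = 0.134, limma). The Ndufaf1 transcript shares such stretches with 5 other genes, the longest with Bag1 (357 bases, 7.5% of the transcript).

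Among the nuclear genes, complexes II and III held none with an unadjusted p under 0.05. Sdha, the flavoprotein of succinate dehydrogenase, had 7887, 5401 and 5486 normalized counts against 7067, 11071 and 6119, and Sdhb, its iron-sulfur subunit, 7902, 6452 and 9223 against 6514, 7122 and 8634. Both overlapped, with log2 fold changes of 0.30 (SE 0.27) and -0.14 (SE 0.22). Sdhc and Sdhd, the membrane anchors, had -0.18 (SE 0.23) and -0.04 (SE 0.22). In complex III, which hands electrons to cytochrome c, Uqcrq had 3279, 2941 and 3803 normalized counts against 4626, 4073 and 5229. It was higher in every TDP-43iΔEC mouse than in any control mouse (log2 fold change 0.43, SE 0.23, unadjusted p = 0.0929, adjusted p = 0.582). The core subunit Uqcrc1, the hinge subunit Uqcrh and cytochrome c1 (Cyc1) had log2 fold changes of -0.17 (SE 0.19), -0.17 (SE 0.24) and 0.07 (SE 0.27).

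Of the 19 nuclear genes of complex IV, 14 were tested, and the isoforms typical of muscle, testis or heart had 0 or few counts. Cox4i1, the common form of subunit 4, had 27456, 29010 and 31363 normalized counts in controls and 23335, 19345 and 31731 in TDP-43iΔEC mice (log2 fold change -0.32, SE 0.18, adjusted p = 0.590), and other genes overlap 16.4% of its exonic sequence. Per kilobase of transcript its level was 973 CPM in control and 906 CPM in TDP-43iΔEC mice, against 4.25 and 4.71 CPM for Cox4i2, the form known from lung. Cox6a1, Cox7a2 and Cox8a, the common forms, had 441, 221 and 319 CPM per kilobase in control mice, while Cox6a2, Cox8b, Cox8c and Cox7b2 were at 0 counts in all 6 libraries, which allows up to 0.0635 to 0.117 CPM per library at 3 counts, for counting error only. Cox7a1, the muscle form, had 0 to 24.4 normalized counts and was not tested. Cox7a2l, which takes part in supercomplexes, had 12636, 15482 and 18384 normalized counts against 12573, 11514 and 13500 (log2 fold change -0.33, SE 0.18).

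Cox6b2, a form known from testis, was the 1 gene of complex IV whose groups did not overlap. It had 44.1, 87.2 and 32.5 normalized counts in controls and 226, 141 and 492 in TDP-43iΔEC mice. The log2 fold change of 2.20 had an SE of 1.33 (adjusted p = 0.612), and its level of 2.34 and 13.5 CPM per kilobase compares with 352 and 463 for the common form Cox6b1. Cox5b-ps, which is annotated as protein-coding, had 12 to 33 normalized counts beside 3381 to 6067 for Cox5b.

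In complex V, Atp5g2, 1 of the 3 genes for the c subunit of the proton-driven rotor, was the 1 nuclear gene with an unadjusted p under 0.05. It had 2943, 2621 and 3509 normalized counts in controls and 1585, 1980 and 2002 in TDP-43iΔEC mice. The groups did not overlap, and the log2 fold change was -0.78 (SE 0.28, unadjusted p = 0.0209, adjusted p = 0.471). A processed pseudogene, Gm10175, shares 441 bases with it at 100% identity and held more counts than the gene (19753 against 15969). With both added, the values were 6686, 6301 and 7425 against 3723, 4263 and 4218, again without overlap (log2 fold change -0.80, SE 0.20, unadjusted p = 0.00340, adjusted p = 0.285). The other c-subunit genes, Atp5g1 and Atp5g3, had 2558, 3115 and 3507 against 3322, 2766 and 4995 and 4210, 3479 and 4786 against 3739, 2828 and 5378, and both overlapped.

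Atp5b, the catalytic beta subunit, had the highest count of all nuclear members, with 47359, 48790 and 47372 normalized counts in controls and 38977, 49373 and 34843 in TDP-43iΔEC mice. The control values lay close together, and TDP-43iΔEC mouse 2 lay just above them and the other TDP-43iΔEC mice below (log2 fold change -0.27, SE 0.13, adjusted p = 0.560). Other genes overlap 23.3% of its exonic sequence. Atp5a1, the alpha subunit, had -0.13 (SE 0.20) and Atp5d, a subunit of the central stalk, -0.38 (SE 0.23). The inhibitor of ATP hydrolysis, listed under its older symbol Atpif1 and not among the 111 genes, had 2641, 3334 and 4203 normalized counts against 3572, 3674 and 5269 (log2 fold change 0.23, SE 0.27). Of the 2 entries named Atp5o, 1 had no counts in any library.

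The nuclear genes were unevenly spread over the TDP-43iΔEC libraries. TDP-43iΔEC mouse 3 had the highest value for 41 of the 91 genes (45.1%) and TDP-43iΔEC mouse 2 the lowest for 41 (45.1%), whereas over all genes these libraries were highest for 18.5% and lowest for 13.3%. Against the mean of TDP-43iΔEC mice 1 and 2, the log2 ratio of TDP-43iΔEC mouse 3 had a median of 0.34 over the nuclear genes and -0.11 over all genes. Many respiratory chain subunits are small proteins with short mRNAs. The 42 genes with transcripts under 1000 bases had a median ratio of 0.55 and the 49 longer ones 0.20, and all genes under 1000 bases had 0.27. Over the 91 genes Spearman's rho between this ratio and length was -0.38, a description over genes that share the same libraries. The median log2 fold change between the groups was -0.11 for the short and -0.13 for the long respiratory chain genes, and over all genes it was -0.14 under 1000 bases and 0.00 at 1000 bases or more. The library comparison was chosen after its values were seen.

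**Figure D5:**
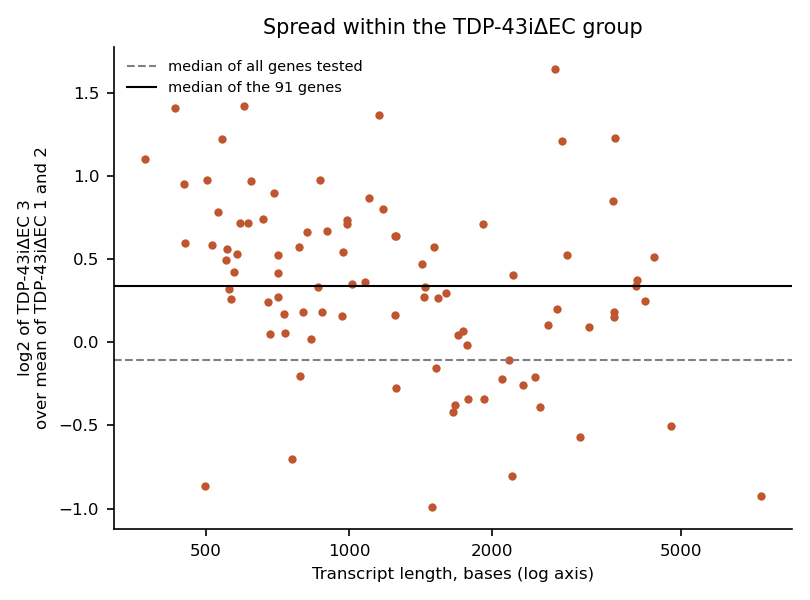
log2 ratio of the normalized count in TDP-43iΔEC mouse 3 to the mean of TDP-43iΔEC mice 1 and 2 against transcript length in bases (log axis) for the 91 nuclear genes. The solid line marks their median, 0.34, and the dashed line the median of all genes tested, -0.11.

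Short motifs known from the promoters of respiratory genes stood in a larger share of the members' promoters than of all promoters. Promoter windows, 250 bases before to 50 after the start, came from RefSeq (GRCm38.p6) for 77 of the 98 genes. The core letters of the NRF1 site (GCATGCGC), searched on both strands, were found in 15.6% of these windows and in 2.80% of all 27025 windows, those of a YY1 site (AAGATGGCG) in 9.09% and 1.49%, and those of an ETS site, as bound by GABPA (CCGGAAG), in 23.4% and 9.12%. The last letters of the ETS core can be the first of the YY1 core, so 1 stretch can hold both. At least 1 of the motifs was in 40.3% of the members' windows and in 12.5% of all. Genes tested with an NRF1 core had a median log2 fold change of -0.12 (12 genes) and those without it -0.13 (62 genes), and with an ETS core -0.15 (18 genes) against -0.11 (56 genes). The 7 genes with a YY1 core had a median of -0.28, and all 7 lay below 0, against -0.09 and 46 of 67 without it. A link between any of these motifs and the fold changes was not tested. A match describes these letters and not binding. The 27025 windows were not restricted to genes expressed in these cells. Whether the larger shares are particular to respiratory chain genes was therefore not tested. The windows of Atp5g2 (chr15:102670998-102671297, minus strand), with overlapping NRF1 cores in capitals from position -42 relative to the start, and of Ndufs7 (chr10:80249199-80249498, plus strand), with a YY1 core in capitals from position 24, are shown as those of nuclear genes whose groups did not overlap.
Atp5g2 promoter: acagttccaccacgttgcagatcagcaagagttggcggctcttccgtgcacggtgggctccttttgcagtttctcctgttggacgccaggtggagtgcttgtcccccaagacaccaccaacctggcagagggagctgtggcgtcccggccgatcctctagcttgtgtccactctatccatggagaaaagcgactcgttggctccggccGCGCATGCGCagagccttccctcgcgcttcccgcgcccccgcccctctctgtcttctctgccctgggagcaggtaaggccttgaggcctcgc
Ndufs7 promoter: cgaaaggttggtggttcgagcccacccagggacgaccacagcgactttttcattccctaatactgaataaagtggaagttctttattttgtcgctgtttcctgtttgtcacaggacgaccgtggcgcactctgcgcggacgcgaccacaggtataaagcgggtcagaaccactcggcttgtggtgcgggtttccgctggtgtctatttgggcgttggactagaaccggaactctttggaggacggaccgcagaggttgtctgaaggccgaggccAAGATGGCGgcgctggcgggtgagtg

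Other genes of the pathway, 204 in all, comprised assembly factors, electron carriers and supercomplex factors, mitochondrial DNA maintenance and RNA factors, ribosomal proteins, import factors and transcription regulators. None of the 198 tested passed an adjusted p of 0.05 in limma, edgeR or DESeq2. In limma, 2 were higher and 9 lower at an unadjusted p under 0.05. Among all 13107 genes, 559 were higher and 656 lower, so neither share was larger among the pathway genes. The median log2 fold change of the 198 genes was -0.17. It became 0.02 with scaling by library size only and 0.08 with the endothelial markers, and was -0.16 relative to all genes. The 8 transcription regulators tested all had log2 fold changes above 0 in limma, against 6461 of all 13107 genes. For 3 of them (Gabpa, Pprc1 and Myc) the groups did not overlap, and 7.93% of all genes were higher without overlap. Pprc1 had 224, 7.12 and 259 normalized counts in controls and 1516, 646 and 627 in TDP-43iΔEC mice. Myc had 499, 0 and 443 against 672, 906 and 1300. Control mouse 2 was the lowest library for both, and for 33% of all genes. Nrf1 had 572, 818 and 474 normalized counts in controls and 815, 820 and 1040 in TDP-43iΔEC mice (log2 fold change 0.49, SE 0.42). Gabpa, the DNA-binding part of the GABP regulator, had 955, 29.4 and 936 against 1269, 1250 and 1155, with control mouse 2 far below the other 5 libraries (log2 fold change 1.93, SE 1.02, adjusted p = 0.581). Without that mouse the log2 fold change of Gabpa was 0.32. Esrra had 3.25 to 213 normalized counts (log2 fold change 0.61, SE 2.00), and its sign turned in 4 alternatives. The coactivators Ppargc1a and Ppargc1b had counts in 2 and 1 of the 6 libraries and were not tested.

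Of the factors that make or keep mitochondrial RNA, Tfam, which packs the mitochondrial DNA and takes part in its transcription, had 882, 140 and 423 normalized counts against 798, 861 and 433 (log2 fold change 0.86, SE 0.71). The mitochondrial RNA polymerase Polrmt had a log2 fold change of -0.38 (SE 0.62), and Lrpprc and Slirp, partners that stabilize mitochondrial mRNAs, 0.88 (SE 0.71) and 0.11 (SE 0.37). None of these 4 had an unadjusted p under 0.05, and single mice moved their values. Without control mouse 2 the log2 fold change was 0.13 for Tfam, 0.08 for Lrpprc and -0.02 for Polrmt, and without control mouse 1 it was 1.47 for Tfam and 1.29 for Lrpprc. That of Lrpprc was 1.36 without TDP-43iΔEC mouse 1 and 1.3 without control mouse 3, and that of Polrmt ran from -0.90 (without control mouse 3) to -0.02. That of Slirp was -0.09 without control mouse 1. In the same list of 28 genes, 0 were higher at an unadjusted p under 0.05 and 2 were lower, named here after their values were seen. Mtpap, the mitochondrial poly(A) polymerase, had 3801, 5397 and 4489 normalized counts in controls and 3179, 2732 and 3556 in TDP-43iΔEC mice (log2 fold change -0.57, SE 0.24, unadjusted p = 0.0417, adjusted p = 0.521). Tefm, the elongation factor of mitochondrial transcription, had 412, 863 and 821 against 215, 112 and 0 (log2 fold change -4.52, SE 1.96, unadjusted p = 0.0469, adjusted p = 0.535). Neither overlapped between the groups, and without TDP-43iΔEC mouse 3 the log2 fold change of Tefm was -2.01. Cytochrome c (Cycs) had 2960, 3625 and 4041 normalized counts against 6303, 3966 and 5725 (log2 fold change 0.56, SE 0.26, unadjusted p = 0.0588). The supercomplex-linked Higd1a and Higd2a had -0.09 (SE 0.24) and -0.19 (SE 0.25). The lowest unadjusted p values among these genes belonged to Mrpl48, a mitochondrial ribosomal protein (2862, 3165 and 2520 against 1964, 1517 and 1087, log2 fold change -0.90, SE 0.30, adjusted p = 0.441), the complex III assembly factor Uqcc3 (log2 fold change -0.80, SE 0.28, adjusted p = 0.454) and Coq3, an enzyme of ubiquinone synthesis (419, 406 and 342 against 5.31, 292 and 1.42, adjusted p = 0.483). All 3 were lower in TDP-43iΔEC mice without overlap.

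Compared per length and as deposited, 5 mitochondrial mRNAs were the most abundant of the 111 genes in both groups. These were mt-Co1, with 4550 CPM per kilobase in control and 7630 in TDP-43iΔEC mice, mt-Cytb 3120 and 6290, mt-Co2 2590 and 3980, mt-Atp6 2140 and 4680 and mt-Nd1 1940 and 3380. With the copies added mt-Co3 joined them, with 3970 CPM per kilobase in control and 5190 in TDP-43iΔEC mice, below 8920 for mt-Co1 in TDP-43iΔEC mice and above mt-Nd1 in both groups. The highest nuclear genes were Cox4i1 with 973 and 906 and Atp5b with 647 and 617. The ratio of all mitochondrial to all nuclear respiratory chain counts was 0.687, 2.58 and 1.08 in control mice and 2.84, 2.44 and 2.43 in TDP-43iΔEC mice, so that control mouse 2 lay among the TDP-43iΔEC mice and the other control mice lay below them. Over the 13 genes, the median log2 fold change relative to all genes was 1.66 without control mouse 2 and 0.57 without control mouse 1.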

How the data were processed

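The data were gene counts of spinal cord ECs in 6 RNA-Seq libraries, 1 per mouse. The authors prepared them with SMARTseq2 (0.2 to 3.1 ng of RNA, 15 or 20 PCR cycles, no molecular identifiers), used STAR 2.7.8a to map them to GRCm39 (GENCODE M30 annotation), and deposited estimated counts from RSEM 1.3.0, which are whole numbers without scaling. The limits given for genes at 0 counts therefore cover counting error only, whereas the SEs of the log2 fold changes come from the spread between libraries. Which library had which RNA amount or cycle number is not given in the sources used here. Groups came from the labels. The p values rest on the spread between libraries. With 1 library per mouse, differences between mice and between library preparations cannot be told apart in that spread.

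The comparison was fitted over all 13107 genes in R 4.3.3 with limma 3.58.1 (voom, filterByExpr and TMM of edgeR 4.0.16), with Benjamini-Hochberg adjustment and a threshold of 0.05. Normalized counts used the size factors of DESeq2 1.42.0. GENCODE M39, in which 98.7% of the identifiers were found, gave exons, overlaps and transcript lengths. Shared sequence means at least 51 bases at 97% identity or more, and a nuclear pseudogene's counts were added where it covered at least 25% of a member's transcript. The limma, edgeR and DESeq2 fits were tested on simulated data, and the other alternatives were not. The members and lists were chosen with earlier results of these data known. The genes named are Tardbp, all mitochondrial members, the nuclear gene with the most counts and the 3 with the lowest p in each complex, isoform pairs, fixed pathway genes and the 3 pathway genes with the lowest p. Others were named after their values were seen, because their groups did not overlap, they had an unadjusted p under 0.05, or to set them beside an isoform or a partner. No pair of libraries agreed within sampling noise (chi-square per degree of freedom at least 164). The alternatives were the quasi-likelihood test of edgeR and the Wald test of DESeq2, other scalings, filters and weights, a replicate block and leaving out each mouse. Removing the trend on GC content and length (loess, span 0.3), adding pseudogene copies and shares within the mitochondrial mRNAs were chosen after the data were seen.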

Additional observations from a re-analysis of the deposited data

How the results depend on the processing

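The number of genes past an adjusted p of 0.05 was 18 in limma, 0 with edgeR, 247 with DESeq2, 10 with library size only, 40 with quantile normalization, 1 with the 5 endothelial marker genes, 76 with no filter, 39 with 10 counts in every library and 0 with the GC content and length trend removed, and 0 to 13 with each mouse left out. Of these, 4 of 18 were higher in limma, 4 of 10 with library size only, 17 of 40 with quantile normalization and 1 of 1 with the endothelial marker genes. At an unadjusted p under 0.05, the alternatives gave 3 (DESeq2) to 9 (library size only) mitochondrial genes higher against 6 in limma, 0 to 3 nuclear genes higher against 1, 0 to 8 nuclear genes lower against 5, 0 to 6 other pathway genes higher against 2 and 1 to 12 of them lower against 9. Among the nuclear genes DESeq2 put 1 past it, a complex I gene, against 0 in limma. Among the mitochondrial genes 1 passed with DESeq2, 2 with quantile normalization, 1 with no filter, 1 with 10 counts in every library, 1 with sample quality weights and 0 to 1 with each mouse left out (1 without control mouse 2). Scaling to the endothelial marker genes moved the median log2 fold change of all genes to 0.23, of the nuclear genes and of complex I to 0.133, of complex II to 0.155, of complex III to 0.202, of complex IV to 0.111 and of the other pathway genes to 0.0758. With library size only, that of all genes was 0.18, of complex II 0.0981, of complex III 0.157 and of the other pathway genes 0.0171. With each mouse left out, the nuclear median ran from -0.195 to -0.0123 and the mitochondrial median relative to all genes from 0.57 to 1.66. Relative to all genes, the nuclear median stayed between -0.11 and -0.04 in the alternatives that kept all 6 mice and ran from -0.23 to 0.01 with 1 mouse left out. The log2 fold changes of single genes that turned sign were smaller than their SE in limma. With library size only and with the endothelial marker genes they were 0.0503 and 0.105 for Sdhb, 0.0113 and 0.0686 for Sdhc, 0.0145 and 0.0800 for Uqcrc1, 0.0251 and 0.0640 for Uqcrh, 0.175 and 0.227 for Cox6a1, 0.0405 and 0.100 for Cox7a2, 0.0430 and 0.0920 for Cox8a, 0.0935 and 0.149 for Higd1a, and 0.00170 and 0.0571 for Higd2a. Cox6a1 was also positive with edgeR (0.0115), DESeq2 (0.0476), DESeq2's size factors (0.0222), quantile normalization (0.0949), mitochondrial, hemoglobin and ribosomal RNA genes left out (0.0189), 10 counts in every library (0.0109), the replicate block (0.00740) and the GC content and length trend removed (0.0890). mt-Co3 was negative with edgeR (-0.0963), DESeq2 (-0.0705) and the GC content and length trend removed (-0.139), Slirp with that trend removed (-0.0144), Ndufa4l2 with edgeR (-0.138), DESeq2 (-0.0854), quantile normalization (-0.213), sample quality weights (-0.303) and the replicate block (-0.0869), and Esrra with edgeR (-0.670), DESeq2 (-0.654) and the replicate block (-0.119). With each mouse left out, mt-Nd3 ran from -0.0622 to 1.36, mt-Co3 from -0.399 to 0.419, Uqcrh from -0.286 to 0.0650, Cox4i2 from -0.959 to 0.248, Cox6a1 from -0.123 to 0.0886, Cox7a2 from -0.323 to 0.00760, Ndufa4l2 from -0.531 to 1.08, Esrra from -1.04 to 1.87, Slirp from -0.0948 to 0.289 and Higd1a from -0.266 to 0.0273. The cause of these turns was not tested. The labels number the mice within each group, and same-numbered mice showed no shared deviation (correlations of -0.063, -0.119 and -0.025). Over all pairs of a control and a TDP-43iΔEC mouse the correlations ran from -0.119 to 0.119. With 3 mice per group, these values cannot decide whether the numbers pair the mice. With the replicate block 22 genes passed in place of 18, none of them a respiratory chain gene. Depth limits most the genes with few counts, such as Cox4i2, Cox6b2 and mt-Nd4l as deposited.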
